A study of Mus musculus with 20 samples.

Results

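The change in gene expression from the day of birth (P0) to postnatal day 16 (P16), called the postnatal step here, was compared between 2 organs of the mouse hearing pathway. These were tissue dissected as the sensory epithelium of the cochlea, which holds the hair cells, and the superior olivary complex (SOC), a set of brainstem nuclei that receives input from both ears. The question was which functions mature more in one organ than in the other between birth and an age after the onset of hearing. All libraries of these 4 groups were used, 13 of the 20 in the series: 3 of the cochlea at P0, 3 of the cochlea at P16, 4 of the SOC at P0 and 3 of the SOC at P16. Of the 22734 genes in the table, 16461 had counts in both organs, and 16430 of these had enough counts to be tested. All mice were untreated wild types of both sexes. The cochlear tissue came from C57BL/6JOlaHsd mice and the SOC tissue from C57Bl6/J mice, and each library was made from the pooled tissue of several animals. For the SOC, mice were decapitated at P0, but at P16 they were first killed with carbon dioxide. More animals were pooled per SOC library at P0 than at P16. Within the SOC these differences cannot be told apart from age. The organs also differed in laboratory, RNA and library kits and sequencer, so that levels were not compared between organs, since organ and procedure cannot be told apart. Only changes with age within each organ were set against each other. A difference between these changes is still tied to substrain, laboratory, kits and sequencer, and their part in it was not tested. The p-values measure the spread between these pooled libraries, not between animals.

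In this interval of mouse development the cochlea begins to respond to airborne sound. Spiral ganglion neurons send myelinated axons from the hair cells to the brainstem, and their myelin is made by Schwann cells outside the brain and by oligodendrocytes inside it. Over the same time neurons of the auditory brainstem replace immature receptor and channel subunits by faster mature ones, and the ducts of the inner ear build the ion gradients that drive hair cell currents.

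Depth ran from 20843679 to 33109083 counts per library, so that 3 counts, the floor used for a gene with a count of 0, stood for 0.0906 to 0.144 counts per 1000000 (CPM). In 4 sets of libraries no gene had a highest count between 1 and 20, so the table was treated as a join of 4 separately filtered tables, a reading of the counts that no source states. A gene left out of one of them is listed there at 0 and may have had up to 20 counts, or 0.604 to 0.96 CPM. All cochlear libraries stood in 1 table. SOC P0 replicates 1, 2 and 3 stood together, and SOC P16 replicate 3 stood alone. SOC P0 replicate 4 stood with SOC P16 replicates 1 and 2, so that age and table were largely tied in the SOC. Such a gap in an SOC table touched 2085 of the genes tested and 348 of the 2646 genes that passed the test below. Neuron markers summed to 8273 to 10230 CPM in the SOC libraries and to 658 to 4029 CPM in the cochlear ones. Of 20 hair cell markers 9, among them Slc26a5, Tmc1 and Strc, were at 0 in every SOC library used, so those genes could not be compared. The cochlear libraries also held cartilage markers, at 6675 to 17310.0 CPM in sum. Fibrocyte and mesenchyme markers there summed to 2907 to 11640 CPM, Schwann cell markers to 416 to 6011 CPM and hair cell markers to 328.5 to 1114 CPM. Changes in the cochlea thus describe the dissected tissue, not the sensory epithelium alone. 3 libraries stood apart from the others of their group. Cochlea P16 replicate 3 held neutrophil markers at 516 CPM in sum against 58.4 and 73.6 CPM in the others, erythroid markers at 1224 against 178 and 289 CPM, and cell cycle genes at 941 against 242 and 295 CPM. SOC P0 replicate 4 held forebrain markers at 382 CPM against 82.1 to 94.6 CPM. SOC P16 replicate 3 held pituitary markers at 259 CPM against 12.5 and 41.0 CPM, choroid plexus markers at 97.0 against 27.9 and 21 CPM, and meningeal markers at 1060.0 against 629 and 269 CPM. Results that rest most on these libraries are given with and without them.

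**Figure D1:**
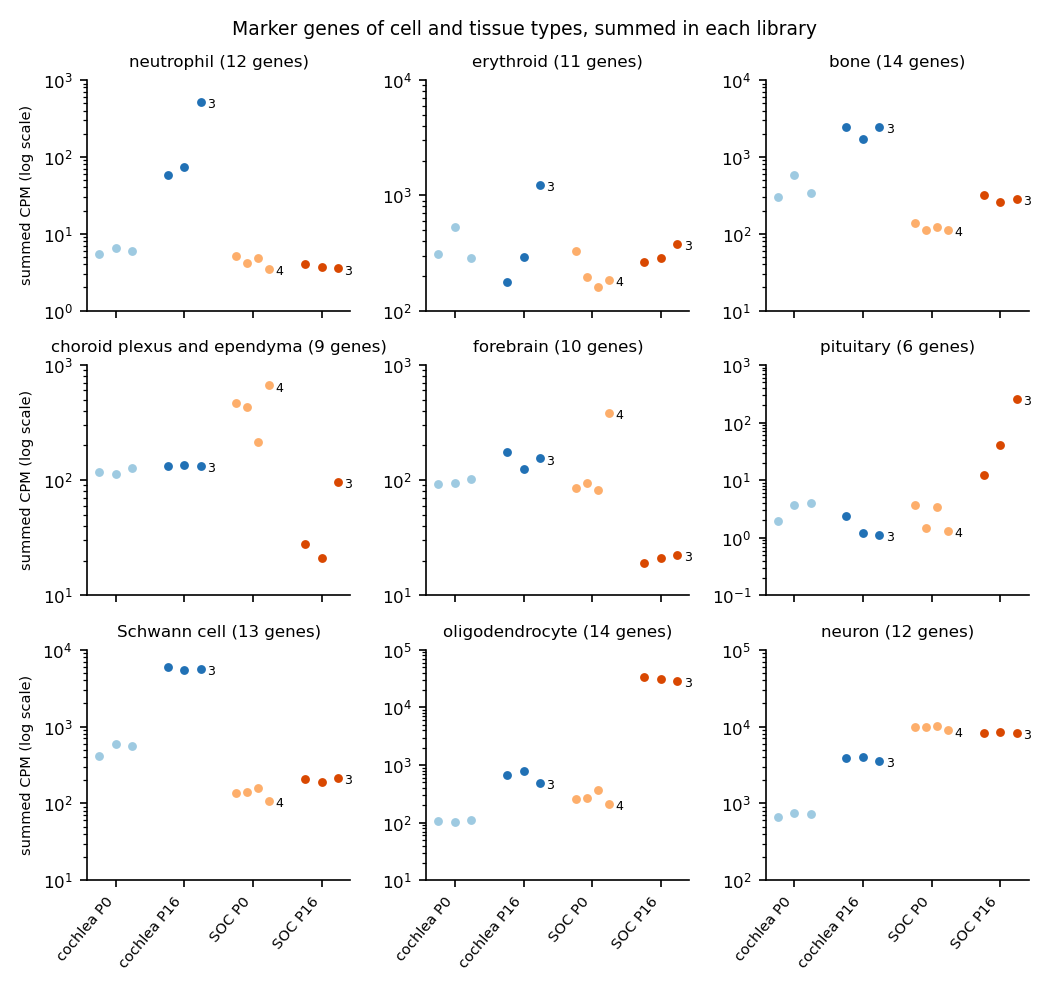
Summed CPM of cell type markers (vertical axes, log scale) in each of the 13 libraries, 1 panel per marker list, with the 4 groups along the horizontal axis. Numbers mark replicate 3 of the cochlea at P16, replicate 4 of the SOC at P0 and replicate 3 of the SOC at P16, which lie away from the other libraries of their group in the neutrophil, erythroid, forebrain, pituitary or choroid plexus panels.

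The interaction, the log2 change from P0 to P16 in the cochlea minus the log2 change in the SOC, passed the test for 2646 genes (edgeR quasi-likelihood test, adjusted p under 0.01, fold over 2.5). Of these, 1557 genes, or 9.48% of those tested, had the more positive change in the cochlea, and 1089, or 6.63%, had it in the SOC. They are counted below as called toward the cochlea and toward the SOC. The counts in each list are to be read beside these shares of all genes. For postsynaptic scaffolds, calcium channels, hormone handling and lysosomal genes they lie near these shares and describe single genes only. The few calls among perineuronal net, gap junction, complement and interferon response genes also describe single genes only. So do the calls toward the cochlea among stereocilia and supporting cell genes. Within the cochlea alone 1764 genes (10.7%) rose and 1437 (8.75%) fell, and within the SOC 1260 (7.67%) rose and 1524 (9.28%) fell, where rose and fell also require that no P0 library overlapped a P16 library. The split of the calls moved with a correction for GC content, whose effect differed between libraries: 58.8% of calls were toward the cochlea without it and 45.3% with it (1323 against 1596 genes). The median interaction over all genes was 0.07 on the log2 scale and -0.17 with that correction, and no called gene was called in the opposite direction in any setting. Where libraries at 0 moved an interaction by over 1 on the log2 scale, the value with floors, that is with every library raised to its floor, is given beside it or in its place. In these bulk tissues a loss of cells of a type and less RNA per cell cannot be told apart. The same is true of a rise, where more cells or tissue of a type in the dissection and more RNA per cell look alike.

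A call toward one organ came about in several ways. Of the 1557 calls toward the cochlea, 652 genes rose in the cochlea with no call in the SOC, 356 fell in the SOC with no call in the cochlea, 87 rose in the cochlea and fell in the SOC, 72 rose in both organs, 22 fell in both and 368 had no step call in either. Of the 1089 calls toward the SOC, 388 rose in the SOC alone, 358 fell in the cochlea alone, 40 rose in the SOC and fell in the cochlea, 61 rose in both, 35 fell in both and 207 had no step call. Changes shared by the organs were common: 1032 genes moved the same way in both (506 rose and 526 fell), and 190 of these also passed the interaction. With the 3 libraries that stood apart left out, the calls numbered 2068 toward the cochlea and 1676 toward the SOC, and 2465 of the 2646 calls (93.2%) were kept. Other settings kept fewer. Leaving out a single library kept 83.2% to 95.8%, the GC correction 88.6% and left-out counts set to 20 kept 90.2%. The test against a fold change of 2.5 kept 32.8%. The setting with SOC libraries of a single joined table held only replicate 4 of the SOC at P0, so its share is not given. Its median interaction over all genes was 0.02, against 0.07.

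**Figure D2:**
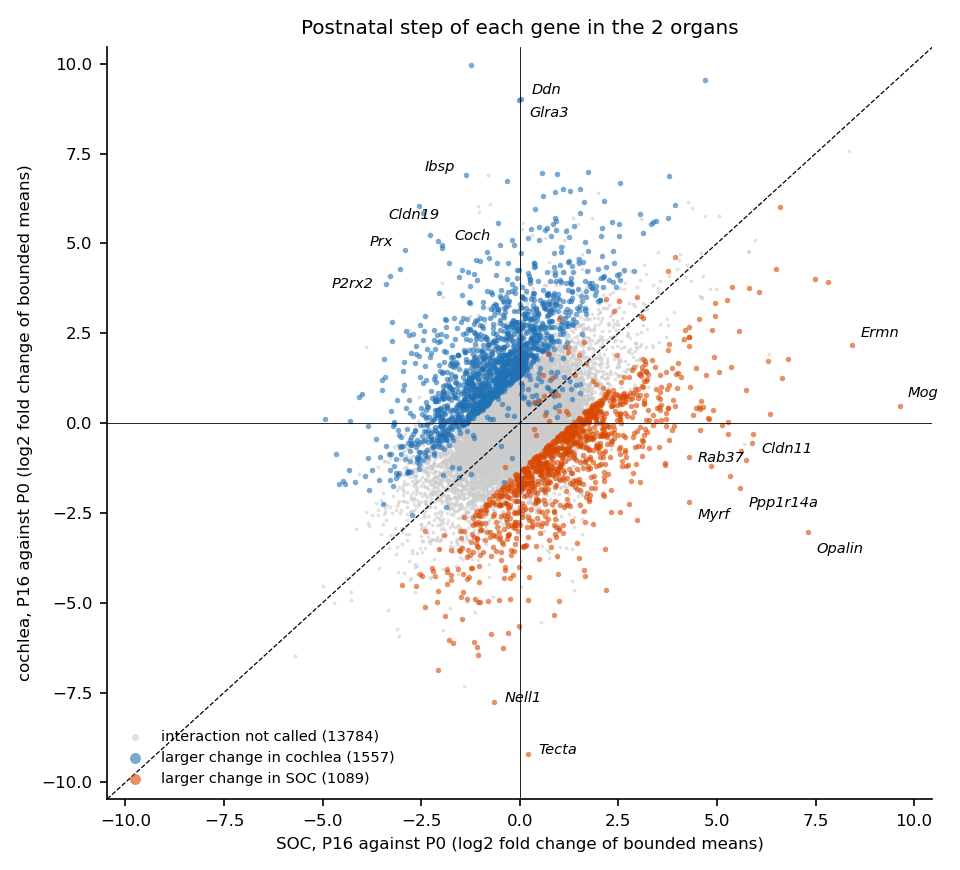
Log2 change from P0 to P16 of each of the 16430 genes in the SOC (horizontal axis) against the cochlea (vertical axis), with every library raised to its floor. Genes called toward the cochlea (1557) lie above the diagonal of equal change and genes called toward the SOC (1089) below it, except for a few genes that the floors bring close to the diagonal or across it, and 13784 genes were not called.

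Schwann cell markers and oligodendrocyte markers moved toward opposite organs: 10 of 13 Schwann cell markers tested were called toward the cochlea and 1 toward the SOC, with a median interaction of 3.86, and 10 of 14 oligodendrocyte markers were called toward the SOC and 0 toward the cochlea, with a median of -5.10, against 0.07 over all genes. In the cochlea 10 Schwann cell markers rose, and in the SOC 5 fell and 1 rose. All 14 oligodendrocyte markers rose in the SOC, whereas in the cochlea 5 rose and 2 fell. The medians kept their sign in every setting, from 3.26 to 4.30 and from -5.58 to -4.70, and with the 3 libraries left out the counts were 10 and 2 for Schwann cells and 0 and 11 for oligodendrocytes.

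Among the Schwann cell genes, Prx stood at 25.4, 35.0 and 26.9 CPM in the cochlea at P0 and 852, 896 and 682 CPM at P16, and at 12.1, 9.85, 9.70 and 6.09 CPM in the SOC at P0 and 1.55, 0.527 and 1.18 CPM at P16. Prx encodes periaxin, a scaffold of the Schwann cell membrane, and it rose in the cochlea and fell in the SOC with no overlap between the ages (interaction 7.73 ± 0.42 SE, edgeR adjusted p = 3.54e-08). Egr2 stood at 3.45, 5.50 and 5.58 CPM in the cochlea at P0 and 31.5, 37.1 and 43.6 CPM at P16, and at 1.87, 1.20, 1.91 and 2.31 CPM in the SOC at P0 and 0.0796, 0.0810 and 0 CPM at P16. Egr2, the transcription factor of peripheral myelination, was under its floor in all 3 SOC libraries at P16 (interaction 7.81 ± 0.58 SE, edgeR adjusted p = 3.90e-07, and 5.38 with floors). Gldn stood at 3.20, 3.12 and 3.01 CPM in the cochlea at P0 and 122, 86.0 and 109 CPM at P16, and at 2.21, 1.94, 2.22 and 1.55 CPM in the SOC at P0 and 1.55, 1.82 and 1.07 CPM at P16. Gldn encodes gliomedin, which Schwann cells use to cluster sodium channels at nodes of Ranvier, and its SOC groups differed little while the cochlear groups were far apart (interaction 5.31 ± 0.31 SE, edgeR adjusted p = 5.98e-08). Drp2 (4.34), Plekha4 (4.74), Mlip (3.86), Ncmap (3.06), Foxd3 (3.07) and Pmp22 (2.56) were also called toward the cochlea. Cdh19, a cadherin of Schwann cell precursors, was the exception, since it rose in both organs and more in the SOC (interaction -2.17 ± 0.33 SE, edgeR adjusted p = 1.86e-04).

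Several oligodendrocyte genes were near 0 in the SOC at birth. Opalin stood at 0.927, 1.38 and 0.385 CPM in the cochlea at P0 and 0, 0.0302 and 0.0396 CPM at P16, and at 0, 0, 0 and 0 CPM in the SOC at P0 and 91.6, 107 and 98.8 CPM at P16. Opalin is a membrane glycoprotein of central myelin, and its rise in the SOC was at least 159.5-fold, while the fitted interaction of -19.45 depends on zeros and was -10.36 with every library raised to its floor. Mog stood at 1.90, 1.24 and 1.25 CPM in the cochlea at P0 and 1.66, 3.96 and 0.357 CPM at P16, and at 0, 0, 0 and 0.794 CPM in the SOC at P0 and 624, 597 and 623 CPM at P16. Mog, the myelin oligodendrocyte glycoprotein on the outermost layer of central myelin, rose 795-fold in the SOC with floors and had overlapping cochlear groups (interaction -11.05 ± 1.10 SE, edgeR adjusted p = 5.82e-06, and -9.15 with floors). Myrf stood at 23.1, 32.6 and 33.1 CPM in the cochlea at P0 and 4.99, 7.46 and 6.54 CPM at P16, and at 1.68, 3.42, 4.92 and 1.06 CPM in the SOC at P0 and 38.4, 43.1 and 61.5 CPM at P16. Myrf, the transcription factor that starts myelin gene expression in oligodendrocytes, fell in the cochlea and rose in the SOC with no overlap in either (interaction -6.50 ± 0.54 SE, edgeR adjusted p = 1.20e-06). Ermn stood at 0.169, 0.320 and 0.289 CPM in the cochlea at P0 and 1.10, 2.20 and 0.0793 CPM at P16, and at 1.15, 1.20, 1.51 and 3.59 CPM in the SOC at P0 and 725, 558 and 381 CPM at P16. Ermn encodes ermin, a cytoskeletal protein of oligodendrocytes, and its cochlear P16 libraries spread widely (interaction -6.24 ± 1.34 SE, edgeR adjusted p = 0.00254), so that the call was lost when cochlea P0 replicate 2 or 3 was left out. Tspan2 (-6.02), Hapln2 (-5.37), Anln (-4.70) and Aspa (-1.97) were also called toward the SOC. Mag, Nkx6-2, Mobp and Klk6 rose in the SOC but did not pass the interaction (adjusted p = 0.0814, 0.856, 0.427 and 0.0106 by edgeR).

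The promoters of Schwann cell genes and of oligodendrocyte genes are shown side by side because these genes moved toward opposite organs. Of 9 leading glial genes looked up in RefSeq, 6 had a single start site and 1 had no entry, and the 250 bases before the start are printed for 5 of the 6, read 5′ to 3′ on the strand of the gene (GRCm38.p6). Capitals mark ACAANG, a core of SOX factor motifs, on either strand.
Prx (chr7:27499074-27499323, plus strand): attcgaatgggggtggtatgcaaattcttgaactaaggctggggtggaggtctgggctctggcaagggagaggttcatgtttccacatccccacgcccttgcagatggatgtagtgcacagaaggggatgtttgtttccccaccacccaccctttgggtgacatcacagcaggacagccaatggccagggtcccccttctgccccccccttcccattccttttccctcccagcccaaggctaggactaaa
Gldn (chr9:54286236-54286485, plus strand): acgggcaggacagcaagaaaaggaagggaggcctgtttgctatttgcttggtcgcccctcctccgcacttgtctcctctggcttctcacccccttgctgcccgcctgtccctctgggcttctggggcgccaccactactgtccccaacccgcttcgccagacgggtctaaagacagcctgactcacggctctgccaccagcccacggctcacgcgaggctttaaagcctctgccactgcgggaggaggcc
Mog (chr17:37023399-37023648, minus strand): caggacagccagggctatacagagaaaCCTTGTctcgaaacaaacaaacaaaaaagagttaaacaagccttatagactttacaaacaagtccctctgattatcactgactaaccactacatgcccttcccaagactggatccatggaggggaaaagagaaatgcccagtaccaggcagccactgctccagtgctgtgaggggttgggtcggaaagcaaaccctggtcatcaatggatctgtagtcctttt
Opalin (chr19:41077114-41077363, minus strand): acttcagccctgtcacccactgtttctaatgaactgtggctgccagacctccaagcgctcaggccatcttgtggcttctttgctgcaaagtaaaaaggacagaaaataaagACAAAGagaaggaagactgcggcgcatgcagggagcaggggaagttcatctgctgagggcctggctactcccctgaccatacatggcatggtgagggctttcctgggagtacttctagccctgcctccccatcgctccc
Ermn (chr2:58052865-58053114, minus strand): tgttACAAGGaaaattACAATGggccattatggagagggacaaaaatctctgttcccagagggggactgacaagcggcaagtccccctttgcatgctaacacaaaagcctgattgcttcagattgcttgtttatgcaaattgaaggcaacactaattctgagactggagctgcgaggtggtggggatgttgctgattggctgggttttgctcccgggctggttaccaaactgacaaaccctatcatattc
ACAANG occurred 0 times before Prx and Gldn, 1 time before Mog and before Opalin, and 2 times before Ermn, and it occurs in 36.3% of all 32851 promoter stretches of this length. GCGNGGGCG, the EGR motif, occurred in none of the 5 and in 4.7% of all. CANNTG was found 1 time each before Prx, Gldn and Opalin and in 66.2% of all, and TATAAA in none of the 5 and in 12.4% of all. The GC content was 56.4% and 63.6% for the Schwann cell genes and 46.8%, 54.4% and 47.2% for the oligodendrocyte genes. A match describes letters in this window and is not a bound site.

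Myelin genes used by both kinds of glia were called toward the SOC alone. All 20 rose in the SOC and 11 rose in the cochlea, 12 were called toward the SOC and 0 toward the cochlea, and the median change was 4.15 in the SOC and 2.06 in the cochlea (median interaction -1.65, -2.07 to -1.55 across settings). Mal stood at 23.3, 21.7 and 19.1 CPM in the cochlea at P0 and 357, 361 and 244 CPM at P16, and at 17.8, 18.3, 18.6 and 15.2 CPM in the SOC at P0 and 3846, 3467 and 2793 CPM at P16. Mal, a proteolipid of compact myelin, rose in both organs and more steeply in the SOC, with no overlap between the ages in either (interaction -3.88 ± 0.27 SE, edgeR adjusted p = 2.68e-07). Mbp (-2.21), Cnp (-1.65) and Ugt8a (-2.42), which make myelin basic protein, a myelin enzyme and the enzyme of galactolipid synthesis, also rose in both organs and passed the interaction toward the SOC. Cldn11 stood at 125, 186 and 128 CPM in the cochlea at P0 and 126, 102 and 120.3 CPM at P16, and at 37.6, 26.2, 33.5 and 27.4 CPM in the SOC at P0 and 1741, 1559.5 and 1552 CPM at P16. Cldn11, the claudin of central myelin and of the basal cells of the stria vascularis, had overlapping cochlear groups and rose in the SOC (interaction -6.22 ± 0.27 SE, edgeR adjusted p = 6.63e-09).

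**Figure D3:**
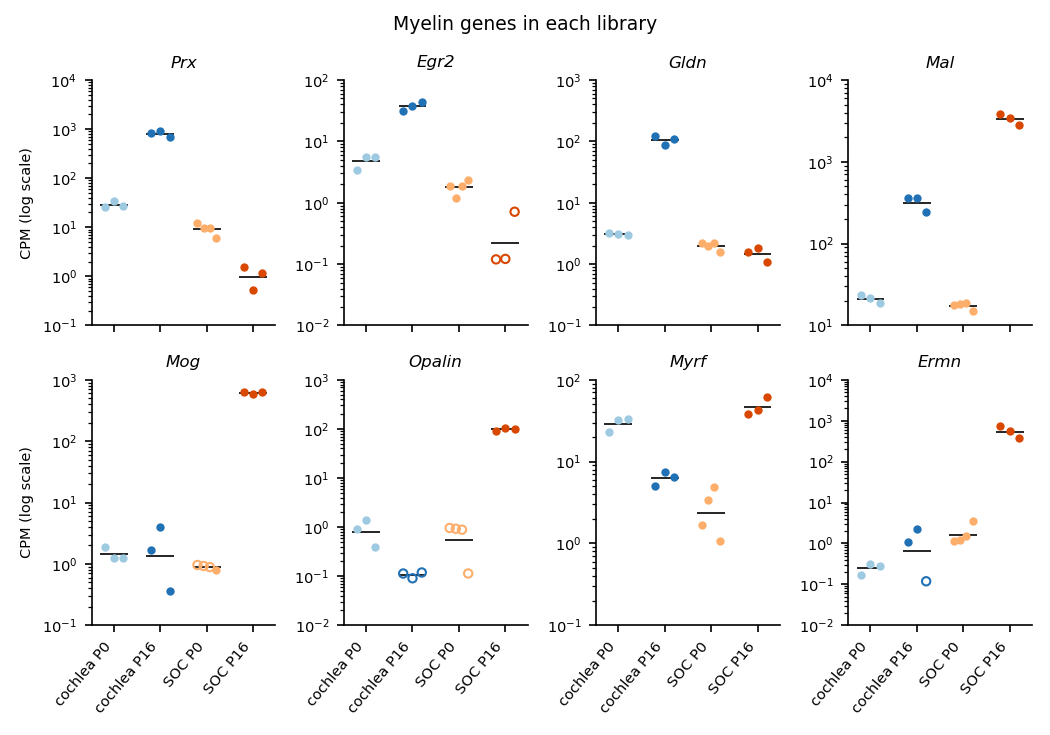
CPM per library (log axis) of 8 glial genes in the cochlea and the SOC at P0 and P16. Points are libraries, bars are geometric means, and open circles are libraries at or under their floor, drawn at the floor. Prx, Egr2 and Gldn rise in the cochlea, and Mog, Opalin, Myrf and Ermn rise in the SOC. Opalin and Myrf fall in the cochlea, and Mal rises in both organs.

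Genes of the node of Ranvier and the axon initial segment, the sites where channels are clustered on the axon, rose in both organs, 13 of 20 in the cochlea against 8 in the SOC, and none fell. 6 were called toward the cochlea and 2 toward the SOC (median interaction 1.0, 0.72 to 1.09 across settings). The 6 included Gldn, Cntnap4 (2.63), Cntn2 (1.77) and Cntnap2 (1.5), the last 2 of which encode the axonal adhesion proteins contactin-2 and Caspr2. Hapln2, a link protein of central nodes, and Nfasc, the adhesion molecule neurofascin, were called toward the SOC. Nfasc stood at 169, 225 and 202 CPM in the cochlea at P0 and 322, 378 and 423 CPM at P16, and at 82.1, 105, 139 and 44.6 CPM in the SOC at P0 and 460.2, 529 and 887 CPM at P16. The cochlear level of Nfasc was higher in every P16 library as well, by 0.93 on the log2 scale, which did not pass the step call (interaction -2.0 ± 0.42 SE, edgeR adjusted p = 0.00233).

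Neuron markers and genes of transmitter release had more calls toward the cochlea than toward the SOC. Of 12 neuron markers 7 were called toward the cochlea and 1 toward the SOC (median interaction 2.28, 1.95 to 2.41 across settings, and 8 and 1 with the 3 libraries left out), 7 rose and 2 fell in the cochlea, and 2 rose and 2 fell in the SOC. Of 48 genes of synaptic vesicles and transmitter release, 20 were called toward the cochlea and 6 toward the SOC, 25 rose and 6 fell in the cochlea, and 9 rose and 5 fell in the SOC. The median interaction of this list was 1.22 and ran from 0.66 to 1.32 in all settings. It was lowest with the SOC libraries of a single joined table, which kept only replicate 4 of the SOC at P0.

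Snap25 stood at 20.2, 19.0 and 22.4 CPM in the cochlea at P0 and 788, 855 and 598 CPM at P16, and at 420.2, 473, 526 and 417 CPM in the SOC at P0 and 1921, 1731 and 1305 CPM at P16. Snap25, the SNARE protein of the presynaptic membrane, rose in both organs with no overlap, 37.0-fold in the cochlea and 4.20-fold in the SOC (interaction 3.14 ± 0.29 SE, edgeR adjusted p = 2.74e-06). Sv2c stood at 5.77, 7.10 and 7.09 CPM in the cochlea at P0 and 193, 230.2 and 223 CPM at P16, and at 99.6, 131, 163 and 72.6 CPM in the SOC at P0 and 291, 371 and 289 CPM at P16. Sv2c, a synaptic vesicle glycoprotein, followed the same order (interaction 3.38 ± 0.35 SE, edgeR adjusted p = 7.63e-06). Nefh stood at 14.4, 23.4 and 25.3 CPM in the cochlea at P0 and 922, 984 and 1008 CPM at P16, and at 134, 164, 209 and 61.8 CPM in the SOC at P0 and 606, 676 and 869.7 CPM at P16. Nefh, the heavy neurofilament subunit of large myelinated axons, likewise rose in both organs and more in the cochlea (interaction 3.01 ± 0.46 SE, edgeR adjusted p = 1.92e-04). Other members called toward the cochlea were the vesicle proteins Syp (2.34) and Rab3c (2.65), the fast calcium sensor Syt2 (2.44) and the priming factor Unc13a (1.83). Tubb3, neuronal beta tubulin, moved in opposite directions, rising in the cochlea by 1.40 and falling in the SOC by 1.34 on the log2 scale (interaction 2.73 ± 0.27 SE, edgeR adjusted p = 5.34e-06). The other calls among the neuron markers were Nefl (2.77, on a locus wholly overlapped by an antisense gene), Elavl4 (2.67), Map2 (2.52) and Stmn2 (2.04).

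Some release genes went the other way. Syt1 stood at 87.1, 78.2 and 90.1 CPM in the cochlea at P0 and 20.1, 12.4 and 12.6 CPM at P16, and at 289, 336, 332 and 355 CPM in the SOC at P0 and 284, 317 and 236 CPM at P16. Syt1, the calcium sensor of fast release in forebrain neurons, fell in the cochlea and differed little between ages in the SOC (interaction -2.46 ± 0.28 SE, edgeR adjusted p = 1.53e-05). Rab3b (-3.01) and Syt5 (-2.62) fell in both organs and more steeply in the cochlea, and Cplx2 (-1.95) fell in the cochlea. Rph3a (-1.65) rose in the SOC, and Unc13c (-1.49) passed the interaction with no step call. Hence, within the synaptotagmin family, Syt2, Syt3 (2.64), Syt4 (2.91) and Syt7 (1.83) were called toward the cochlea and Syt1 and Syt5 toward the SOC.

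Transmitter genes were called in both directions. Of 25 genes of transmitter synthesis and transport 5 were called toward the cochlea and 8 toward the SOC, with a median whose sign was not the same in all settings (-0.21 to 0.40). The 5 included the vesicular glutamate transporters. Slc17a7 stood at 6.87, 8.70 and 9.59 CPM in the cochlea at P0 and 274, 323 and 326 CPM at P16, and at 8.40, 12.6, 13.7 and 13.3 CPM in the SOC at P0 and 60.7, 57.7 and 60.8 CPM at P16. Slc17a7 (VGLUT1) rose in both organs, and the cochlear rise was the steeper (interaction 2.70 ± 0.26 SE, edgeR adjusted p = 4.83e-06). Slc17a8 stood at 6.49, 5.89 and 5.26 CPM in the cochlea at P0 and 59.5, 66.8 and 48.1 CPM at P16, and at 16.2, 18, 16.6 and 14.4 CPM in the SOC at P0 and 5.21, 7.74 and 4.71 CPM at P16. Slc17a8 (VGLUT3), which loads glutamate into hair cell vesicles, rose in the cochlea, while each SOC library was lower at P16 than at P0 without passing the step call (interaction 4.59 ± 0.30 SE, edgeR adjusted p = 1.45e-07). Slc17a6 (VGLUT2) rose in the cochlea alone (interaction 3.30 ± 0.27 SE, edgeR adjusted p = 9.22e-07). Another was the glutamate transporter Slc1a1 (1.54), whose locus is 66.3% overlapped by an antisense gene.

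The 8 called toward the SOC make or clear transmitters, or move chloride. Slc1a2 stood at 225, 209 and 172 CPM in the cochlea at P0 and 93.7, 96.6 and 85.5 CPM at P16, and at 237, 303, 382 and 209 CPM in the SOC at P0 and 3122, 3409.5 and 2791 CPM at P16. Slc1a2, the main glutamate transporter of astrocytes, rose in the SOC, and in the cochlea it lay lower at P16 in every library without passing the step call (interaction -4.78 ± 0.30 SE, edgeR adjusted p = 1.02e-07). Ddc, the enzyme that makes dopamine and serotonin, fell in the cochlea and rose in the SOC (interaction -3.76 ± 0.31 SE, edgeR adjusted p = 1.20e-06). The choline transporter Slc5a7 (-3.65), the GABA-synthesizing enzyme Gad2 (-3.29) and the GABA transporter Slc6a11 (-2.42) fell in the cochlea, and Gad1 (-1.55) and Abat (-1.62) passed the interaction with no step call. The chloride importer Slc12a2, which also feeds potassium into the stria vascularis, rose in the SOC (interaction -2.13 ± 0.41 SE, edgeR adjusted p = 0.00123).

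Receptor genes split within families. Of 18 ionotropic glutamate receptor genes 3 were called toward the cochlea and 5 toward the SOC (median interaction -0.57, -0.89 to -0.33 across settings). Gria2 stood at 9.18, 7.17 and 5.97 CPM in the cochlea at P0 and 78.5, 66.4 and 51.3 CPM at P16, and at 429, 444, 485 and 729 CPM in the SOC at P0 and 285, 301 and 235 CPM at P16. Gria2, the AMPA receptor subunit that blocks calcium entry, rose in the cochlea and lay lower at P16 in every SOC library without a step call (interaction 3.89 ± 0.35 SE, edgeR adjusted p = 2.65e-06). Grin2a stood at 19.2, 20.1 and 19.6 CPM in the cochlea at P0 and 3.32, 0.634 and 0.357 CPM at P16, and at 37.7, 42.8, 57.7 and 35.9 CPM in the SOC at P0 and 97.5, 118 and 107 CPM at P16. Grin2a, the mature NMDA receptor subunit, fell in the cochlea and rose in the SOC, with a wide spread of the cochlear P16 libraries (interaction -5.27 ± 0.64 SE, edgeR adjusted p = 2.85e-05). The other calls toward the cochlea were Grik3 (2.98) and the obligatory NMDA subunit Grin1 (2.59), and those toward the SOC included Grid1 (-2.64), Grin3b (3.29-fold higher in the SOC at P16 with floors) and Grin2b (-1.59, lost in 12 of 26 other settings).

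Among 20 GABA and glycine receptor genes 5 were called toward each organ, and 3 toward the cochlea and 8 toward the SOC with the GC correction. Glra3 stood at 0.0421, 0 and 0 CPM in the cochlea at P0 and 54.3, 51.8 and 58.8 CPM at P16, and at 32.7, 35.6, 36.3 and 38.4 CPM in the SOC at P0 and 32.3, 35.4 and 23.4 CPM at P16. Glra3, a subunit of inhibitory glycine receptors (mm10 chr8:55940460-56130070), had the largest interaction with floors of the leading genes called toward the cochlea (9.01, edgeR adjusted p = 6.63e-09): it rose 509-fold in the cochlea with floors, where it was at or under the floor in all P0 libraries, and its SOC groups overlapped. Glrb, the subunit that anchors glycine receptors at synapses, rose in both organs and more in the cochlea (interaction 1.95 ± 0.30 SE, edgeR adjusted p = 1.96e-04), as Gabbr2 (2.64) did in the cochlea alone, while Gabrg3 (1.57) passed the interaction with no step call. Glra1, the adult glycine receptor subunit, was listed at 0 in every cochlear library and was not tested. Gabra3 stood at 2.44, 2.24 and 2.76 CPM in the cochlea at P0 and 0.0755, 0.121 and 0.159 CPM at P16, and at 63.8, 71.8, 74.7 and 76.4 CPM in the SOC at P0 and 53.3, 64.3 and 47.1 CPM at P16. Gabra3, an immature GABA-A receptor subunit, fell in the cochlea and had overlapping SOC groups (interaction -4.14 ± 0.35 SE, edgeR adjusted p = 1.42e-06). Gabra2 (-2.71), Gabra4 (-1.47) and Gabre (-2.34) fell in the cochlea as well. Glra4 was called toward the SOC (-4.76), but its interaction was 0.76 with every library raised to its floor, and its locus lies wholly under an antisense gene.

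**Figure D4:**
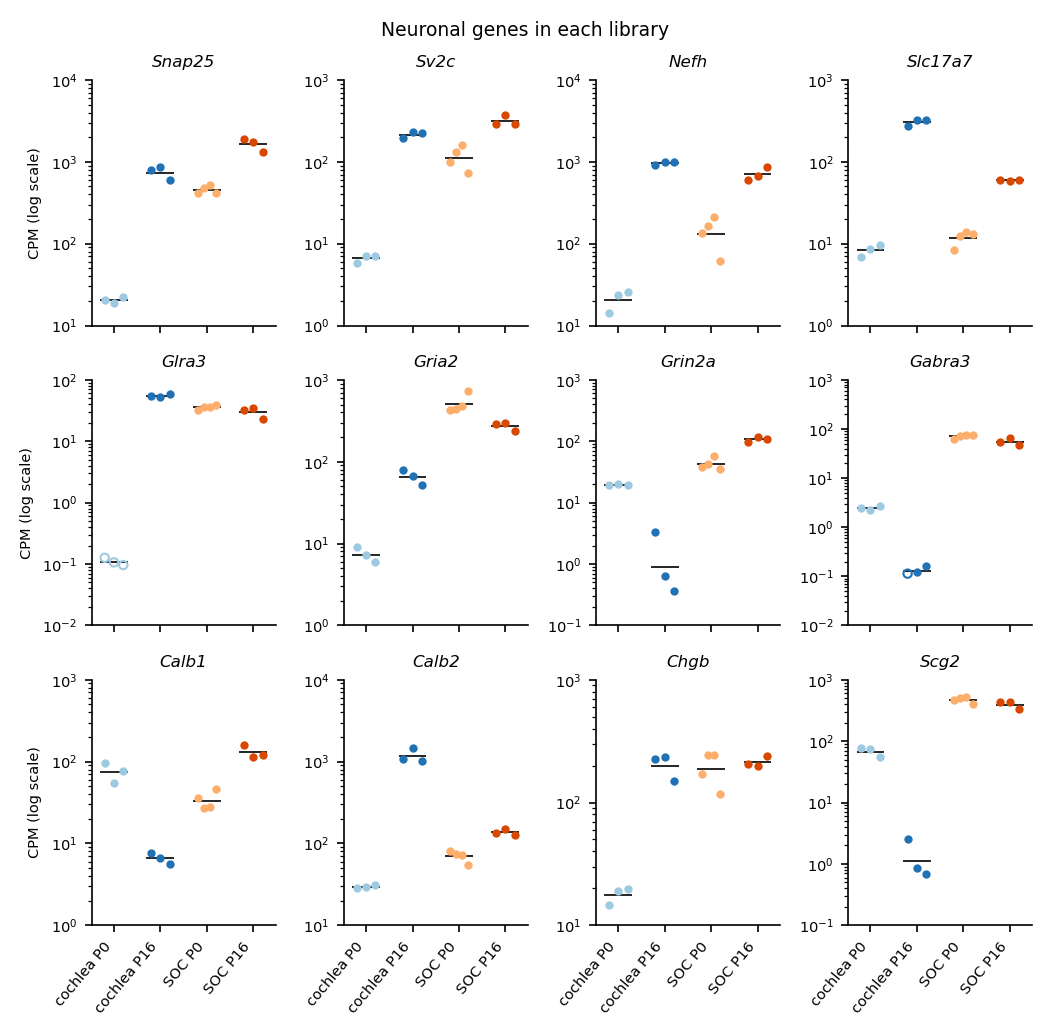
CPM per library (log axis) of 12 neuronal genes in the cochlea and the SOC at P0 and P16. Points are libraries, bars are geometric means and open circles are libraries at or under their floor, drawn at the floor. Snap25, Sv2c, Nefh, Slc17a7, Glra3, Gria2, Calb2 and Chgb climb more in the cochlea, and Grin2a, Gabra3, Calb1 and Scg2 fall in the cochlea only.

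The lists of the textbook switch from immature to mature subunits included forms that moved the same way in both organs and forms that did not. Of 12 immature forms 7 fell and 1 rose in the cochlea and 5 fell and 1 rose in the SOC, with 1 call toward the cochlea (Tubb3) and 4 toward the SOC (Gabra3, Gabra2, Slc12a2 and Grin2b). Of 11 mature forms 7 rose and 1 fell in the cochlea and 8 rose in the SOC, with Nefh and Nefl called toward the cochlea and Grin2a and Tubb4a (-2.58) toward the SOC. Scn1a stood at 8.05, 7.28 and 7.34 CPM in the cochlea at P0 and 149, 139 and 108 CPM at P16, and at 111, 117, 146 and 119 CPM in the SOC at P0 and 1075, 1092 and 741 CPM at P16. Scn1a, a sodium channel of mature fast-firing neurons, rose in both organs, and its interaction of 0.95 had a 95% interval of 0.35 to 1.56 and did not pass the fold threshold. Dcx stood at 52.2, 54.1 and 58.2 CPM in the cochlea at P0 and 8.46, 7.07 and 7.93 CPM at P16, and at 305, 340.3, 314 and 544 CPM in the SOC at P0 and 22.5, 23.7 and 21.7 CPM at P16. Dcx, doublecortin of immature neurons, fell in both organs (interaction 1.06, interval 0.43 to 1.69, not called). Scn3a fell and Scn8a and Grin2c rose in both organs without a call, with interactions of 0.80, 1.23 and 0.44. The chloride exporter Slc12a5 had no step call in either organ (-0.61 in the cochlea and 0.03 in the SOC). Among the remaining forms, the immature Glra2 (-0.27), Grin3a (0.94), Gabra5 (-0.63), Cacna1b (0.41) and Ina (1.09) and the mature Cacna1a (1.05) and Gabra6 (-0.49) were not called.

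Voltage-gated channels differed in both directions. Of 28 potassium channel genes 9 were called toward the cochlea and 5 toward the SOC, 13 rose in the cochlea against 7 in the SOC, and the median interaction of 0.32 was below 0 with the GC correction and with the SOC libraries of one joined table (-0.02 and -0.31). Kcng4 stood at 0.211, 0.320 and 0.385 CPM in the cochlea at P0 and 0.755, 1.03 and 1.31 CPM at P16, and at 0, 0, 0 and 0.113 CPM in the SOC at P0 and 61.2, 69.4 and 80.1 CPM at P16. Kcng4, a modifier subunit of Kv2 channels, rose in both organs, with floors 112-fold in the SOC and 3.42-fold in the cochlea (interaction with floors -5.04). Kcnc1 stood at 9.73, 16.4 and 15.3 CPM in the cochlea at P0 and 167, 199.7 and 260.4 CPM at P16, and at 33.7, 50.6, 55.0 and 21.9 CPM in the SOC at P0 and 67.9, 74.2 and 115 CPM at P16. Kcnc1, the fast delayed rectifier Kv3.1, rose in the cochlea (interaction 2.66 ± 0.43 SE, edgeR adjusted p = 3.04e-04), and its relative Kcnc2 rose in the SOC (-1.88). Kcnip1 (4.37), a subunit of A-type channels, rose in the cochlea and fell in the SOC, while Kcnab1 (-3.42) rose in the SOC and Kcnh1 (-1.96) and Kcnq5 (-1.54) fell in the cochlea.

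Of 13 sodium channel genes 3, among them Scn7a (1.94) and Scn2a1 (1.42), were called toward the cochlea and Scn11a (-2.31) toward the SOC, and with the GC correction the counts were 0 and 3. The median interaction was 0.94 (0.64 to 1.05 across settings), whereas the median change itself was 0.42 in the cochlea and 1.83 in the SOC, the latter -0.50 with floors. Of 22 calcium channel genes Cacna2d1 (1.66), Cacnb3 (1.53) and Cacng2 (1.61, lost in 11 of 26 other settings) were called toward the cochlea and the T-type channel Cacna1h (-1.92) toward the SOC (median -0.20, -0.52 to -0.10 across settings), and with the GC correction the counts were 1 and 3. The first 2 fell in the SOC, and Cacna1h fell in both organs, more steeply in the cochlea.

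Calretinin and calbindin moved toward opposite organs. Calb2 stood at 28.4, 29.4 and 31.2 CPM in the cochlea at P0 and 1078, 1484 and 1006 CPM at P16, and at 81.1, 73.4, 73.0 and 55.1 CPM in the SOC at P0 and 135, 151 and 127 CPM at P16. Calb2, or calretinin, rose 40.8-fold in the cochlea with no overlap and did not pass the step call in the SOC (interaction 4.17 ± 0.26 SE, edgeR adjusted p = 1.18e-07). Calb1 stood at 96.5, 55.4 and 77.7 CPM in the cochlea at P0 and 7.74, 6.61 and 5.55 CPM at P16, and at 35.5, 26.8, 27.9 and 46.7 CPM in the SOC at P0 and 160.0, 113 and 121 CPM at P16. Calb1, or calbindin, fell in the cochlea and rose in the SOC, again with no overlap in either organ (interaction -5.65 ± 0.37 SE, edgeR adjusted p = 1.51e-07). Pvalb stood at 21.9, 18.9 and 22.5 CPM in the cochlea at P0 and 192, 276 and 161 CPM at P16, and at 10.7, 8.92, 8.42 and 4.50 CPM in the SOC at P0 and 239, 204 and 205 CPM at P16. Pvalb, or parvalbumin, rose in both and more in the SOC (interaction -1.61 ± 0.36 SE, edgeR adjusted p = 0.00301). Of the 18 members, Vsnl1 (3.26), Cabp1 (3.11), S100a1 (2.75) and Ncs1 (1.80) were also called toward the cochlea, and Necab3 (-3.32) and Necab2 (-1.56) toward the SOC. The median interaction of the list was 0.28 (0.03 to 0.36 across settings).

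Most neuropeptides and granins fell in the cochlea. Of 12 tested 7 fell and 2 rose in the cochlea, against 2 and 1 in the SOC, and 7 were called toward the SOC and 2 toward the cochlea (median interaction -2.83, -3.14 to -1.99 across settings). Scg2 stood at 77.7, 73.9 and 54.1 CPM in the cochlea at P0 and 2.53, 0.846 and 0.674 CPM at P16, and at 465, 501, 516 and 398 CPM in the SOC at P0 and 427, 435 and 328 CPM at P16. Scg2, or secretogranin II, of dense core vesicles, fell in the cochlea and had overlapping SOC groups (interaction -5.63 ± 0.46 SE, edgeR adjusted p = 1.01e-06). Chgb stood at 14.6, 19.1 and 19.6 CPM in the cochlea at P0 and 227, 235 and 149 CPM at P16, and at 172, 244, 245 and 116 CPM in the SOC at P0 and 206, 197 and 241 CPM at P16. Chgb, chromogranin B, rose in the cochlea instead, and its SOC groups overlapped (interaction 3.19 ± 0.36 SE, edgeR adjusted p = 1.53e-05), as Chga did (2.29). Trh (-6.56, -5.16 with floors), Tac1 (-6.31, -1.87 with floors), Calca (-4.09), Vgf (-2.99) and Penk (-2.67) fell in the cochlea, and Nppc (-1.57) rose in the SOC. Another 12 genes of the list, Sst, Cck, Vip and Crh among them, were not tested for lack of counts in one organ.

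Postsynaptic and matrix genes of neurons were called in both directions, the postsynaptic ones at shares near those of all genes (9.48% and 6.63%). The matrix ones held 2 calls toward each organ and describe single genes only. Of 35 genes of postsynaptic scaffolds and adhesion 4, among them Lrrtm3 (2.77), Homer2 (2.01) and Camk2b (1.33, lost in 10 of 26 other settings), were called toward the cochlea and Nrxn3 (-2.77), Camk2a (-1.92) and Homer3 (-1.46) toward the SOC, with medians of either sign across settings (-0.16 to 0.31). In the perineuronal net, the matrix around fast neurons, Hapln4 and Has3 (1.41) were called toward the cochlea and Hapln2 and Vcan (-4.38) toward the SOC, of 14 (median 0.66, 0.50 to 0.95 across settings). Hapln4 stood at 0.169, 0.0355 and 0.128 CPM in the cochlea at P0 and 68.5, 89.7 and 140.1 CPM at P16, and at 2.02, 3.51, 4.48 and 1.32 CPM in the SOC at P0 and 55.4, 62.4 and 74.3 CPM at P16. Hapln4, the link protein brevican needs at inhibitory synapses and nodes, rose in both organs, 752-fold in the cochlea with floors (interaction 5.09 ± 0.68 SE, edgeR adjusted p = 7.30e-05). Vcan, the proteoglycan versican, fell in the cochlea.

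Genes of hair cell function differed one by one. Of 15 genes of hair cell currents and ribbon synapses 5 were called toward the cochlea and 1 toward the SOC (median interaction 0.38, 0.01 to 0.78 across settings), and of 27 genes of mechanotransduction and stereocilia 3 and 5, with medians of either sign across settings (-0.27 to 0.47). No test of the difference between the lists was made. P2rx2 stood at 5.86, 7.24 and 8.59 CPM in the cochlea at P0 and 99.0, 111 and 158 CPM at P16, and at 6.52, 6.43, 5.05 and 5.07 CPM in the SOC at P0 and 0, 0.729 and 0 CPM at P16. P2rx2, an ATP-gated channel of the cochlear epithelium, rose in the cochlea and fell in the SOC (interaction 8.49 ± 0.77 SE, edgeR adjusted p = 2.48e-06, and 7.4 with floors). Otof stood at 76.4, 85.0 and 101 CPM in the cochlea at P0 and 166, 216 and 219.8 CPM at P16, and at 13, 15.4, 16.1 and 6.99 CPM in the SOC at P0 and 2.03, 2.67 and 2.67 CPM at P16. Otof, otoferlin, the calcium sensor of hair cell synapses, fell in the SOC and lay higher at P16 in every cochlear library by 1.22 on the log2 scale without passing the step call (interaction 3.40 ± 0.36 SE, edgeR adjusted p = 9.00e-06). Slc17a8, the calcium-binding protein Cabp1 (3.11) and the large-conductance potassium channel Kcnma1 (2.33) rose in the cochlea, and the ATP-gated channel P2rx3 (-2.41) fell there.

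Of the 27 genes of the mechanical apparatus 1 rose and 3 fell in the cochlea, where 10.7% and 8.75% of all genes did. Ush1c (3.66), Pdzd7 (1.66) and Tmie (1.39, lost in 8 of 26 other settings) were called toward the cochlea, and Ush1c, which stood below 1 CPM in every SOC library, had an interaction of 0.34 with floors. Pls1 (-3.61), Tprn (-2.83), Whrn (-1.65, lost in 9 of 26 other settings) and Clic5 (-1.44), proteins that also occur outside hair cells, rose in the SOC. Among the 11 hair cell markers tested Slc17a8, Otof and Pou4f3 (3.80, and 1.31 with floors) were called toward the cochlea and Pvalb toward the SOC (median 1.30, 0.54 to 1.89 across settings).

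Genes of the acellular matrices of the inner ear were called in both directions. Tecta stood at 3369, 3596 and 4326 CPM in the cochlea at P0 and 5.59, 4.86 and 8.20 CPM at P16, and at 0.480, 0.647, 0.798 and 0.605 CPM in the SOC at P0 and 0.318, 0.891 and 0 CPM at P16. Tecta, alpha-tectorin, a core protein of the tectorial membrane, fell in the cochlea more than any other leading gene (mm10 chr9:42329619-42399929, interaction -8.74 ± 0.94 SE, edgeR adjusted p = 1.11e-05), and in the SOC it stayed below 1 CPM. Tectb (-2.97, lost in 13 of 25 other settings), Matn4 (-3.82) and Col9a1 (-1.80, lost in 10 of 26 other settings) fell in the cochlea as well. Coch stood at 297, 173 and 213 CPM in the cochlea at P0 and 6246, 6611 and 8122 CPM at P16, and at 32.9, 25.3, 31.0 and 36.1 CPM in the SOC at P0 and 6.53, 7.01 and 7.38 CPM at P16. Coch, cochlin, the most abundant protein of the inner ear extracellular matrix, rose 31.3-fold in the cochlea and fell in the SOC (interaction 6.94 ± 0.30 SE, edgeR adjusted p = 6.63e-09). Emilin2, on a locus fully under an antisense gene, rose in both organs (1.34, lost in 10 of 26 other settings). In all 2 of 13 matrix genes were called toward the cochlea and 4 toward the SOC, and 6 fell in the cochlea (median -1.08, -1.85 to 0.08 across settings). Coch and Emilin2 are also counted below as fibrocyte and mesenchyme markers, so the list mixes unlike matrices.

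Of 22 genes of ion transport into the endolymph, the potassium-rich fluid over the hair cells, 8 were called toward the cochlea and 3 toward the SOC. Kcnj16 stood at 2.36, 1.85 and 2.28 CPM in the cochlea at P0 and 270.1, 283 and 258 CPM at P16, and at 20.4, 22.1, 24.8 and 16.8 CPM in the SOC at P0 and 66.0, 61.7 and 53.4 CPM at P16. Kcnj16, a potassium channel subunit that pairs with Kcnj10, rose in both organs and far more in the cochlea (interaction 5.25 ± 0.25 SE, edgeR adjusted p = 1.38e-08). Slc4a11 stood at 3.96, 4.05 and 4.27 CPM in the cochlea at P0 and 60.0, 136 and 221 CPM at P16, and at 0.480, 1.02, 0.310 and 0 CPM in the SOC at P0 and 0, 0 and 0 CPM at P16. Slc4a11, a borate transporter family member of spiral ligament fibrocytes, rose 34.4-fold in the cochlea, with an interaction of 4.63 with floors. Slc26a4 stood at 26.0, 25.6 and 21.8 CPM in the cochlea at P0 and 102, 160.1 and 110.1 CPM at P16, and at 0.144, 0.185, 0.0886 and 0.340 CPM in the SOC at P0 and 0.0796, 0.0810 and 0 CPM at P16. Slc26a4, pendrin, which exports bicarbonate into the endolymph, rose in the cochlea (interaction with floors 1.61). Kcne2 stood at 0.295, 0.355 and 0.449 CPM in the cochlea at P0 and 5.85, 5.04 and 5.07 CPM at P16, and at 3.79, 3.14, 1.33 and 5.97 CPM in the SOC at P0 and 0, 0 and 0 CPM at P16. Kcne2, a potassium channel subunit also found in choroid plexus, rose in the cochlea and was at least 10.5-fold lower in the SOC at P16 than at P0 (interaction with floors 7.27). Cldn9 (4.42, 0.43 with floors), Aqp5 (3.09, 0.29 with floors) and Aqp4 (3.05) were also called toward the cochlea. Cldn14 (-7.20, -2.94 with floors), Cldn11 and Slc12a2 were called toward the SOC, and the list median was of either sign across settings (-0.43 to 1.13).

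Markers of cell types of the cochlear duct were called in both directions, some of them mainly through changes in the SOC. Of 13 markers of the stria vascularis 5, among them Lrp2 (4.36), Slc26a4, Met (3.46) and Atp13a5 (2.71), were called toward the cochlea and Cldn11 toward the SOC. With floors, Lrp2 was 2.71-fold higher in the cochlea at P16 and 7.81-fold lower in the SOC. Met was 2.49-fold higher and 4.40-fold lower, while Atp13a5 was 9.91-fold higher in the cochlea. Met lay at 71.0 CPM in SOC P0 replicate 4 against 15 to 19.4 CPM in the other P0 libraries, and without that replicate its interaction was 2.61. Of 17 supporting cell markers S100a1 and Epyc (3.85, 1.34 with floors, lost in 11 of 25 other settings) were called toward the cochlea and Tecta, Matn4, Tectb, Hes5 (-2.10, lost in 16 of 26 other settings) and Prox1 (-1.39) toward the SOC. Of 11 fibrocyte and mesenchyme markers Slc4a11, Coch, Slc7a11 (4.07) and Emilin2 were called toward the cochlea and 9430076C15Rik (-3.76, the table's name for Creb5), Gdf10 (-2.98) and Tbx18 (-1.80) toward the SOC. The medians were 1.93, 0.29 and 0.27, and that of the stria ranged over -1.06 to 2.37 across settings.

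Most genes of mineralized tissue rose in the cochlea. Of 18 bone mineral and matrix genes 11 rose in the cochlea, 7 were called toward it and 1, Ank (-1.37), toward the SOC (median interaction 2.66, 0.85 to 2.99 across settings). Ibsp stood at 1.39, 1.67 and 0.673 CPM in the cochlea at P0 and 222, 71.3 and 143 CPM at P16, and at 0.576, 0.832, 1.11 and 1.17 CPM in the SOC at P0 and 0.119, 0.162 and 0 CPM at P16. Ibsp, bone sialoprotein, rose in the cochlea, where its P16 libraries spread from 71.3 to 222 CPM, and fell in the SOC from low values (interaction 10.01 ± 0.84 SE, edgeR adjusted p = 1.20e-06, and 8.26 with floors). Smpd3 stood at 11.1, 16.7 and 12.8 CPM in the cochlea at P0 and 93.0, 53.9 and 90.1 CPM at P16, and at 114, 122, 109.6 and 95.7 CPM in the SOC at P0 and 10.1, 12.3 and 17.1 CPM at P16. Smpd3, a sphingomyelinase needed for bone mineral, rose in the cochlea and fell in the SOC (interaction 5.45 ± 0.31 SE, edgeR adjusted p = 5.14e-08). Phex (4.78), Alpl (3.44), Dmp1 (2.83), Bmp8a (8.52, 2.15 with floors) and the osteoclast inhibitor Tnfrsf11b (4.27) made up the rest. Of 10 bone cell markers, most of them in the first list as well, 5 were called toward the cochlea. The summed bone markers were at 296, 589 and 340.5 CPM in the cochlea at P0 and 2469, 1724 and 2474 CPM at P16, and their part in other results was not tested.

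Cartilage markers went the other way in part. Matn1 (-5.20) and Col9a1 fell in the cochlea, Col9a3 (-2.13) passed the interaction with no step call and Lect1 (-1.60, the table's name for Cnmd) rose in the SOC, and these 4 of 11 were called toward the SOC. Ucma (4.08), of the upper cartilage zone, rose in both organs and was called toward the cochlea. The median was -0.74 (-1.0 to -0.25 across settings). The summed markers stood at 15580.0, 16960.0 and 17310.0 CPM in the cochlea at P0 and 7992, 6675 and 7477 CPM at P16.

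Of 15 neutrophil granule and antimicrobial genes 11 rose in the cochlea, 6 were called toward it and 0 toward the SOC, and the median interaction was 3.81. Cochlea P16 replicate 3 was the highest library here: Ltf stood at 0.379, 0.817 and 0.641 CPM in the cochlea at P0 and 13.2, 24.3 and 122 CPM at P16, and at 0.576, 0.277, 0.310 and 0.227 CPM in the SOC at P0 and 0.836, 0.365 and 1.03 CPM at P16. Ltf, lactoferrin of neutrophil granules, still lay above every P0 library in the other P16 libraries (interaction 5.11 ± 1.24 SE, edgeR adjusted p = 0.00558), but its call was lost in 10 of 26 other settings. The others called were Lyz2 (3.03), Mmp9 (2.36), Cybb (1.91, lost in 15 of 26 other settings), Prtn3 (4.71, 3.56 with floors, lost in 10 of 24 other settings) and Ncf4 (10.03, 2.93 with floors). With the 3 libraries left out 7 and 0 were called and the median was 1.92. The 7 neutrophil markers tested, of which Ltf and Prtn3 were called, gave medians of 5.06 and 2.0, and 5 of the 12 were at 0 in the SOC.

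Other blood and immune lists were smaller or held few calls. Of 8 erythroid genes Slc4a1 (3.84, lost in 16 of 26 other settings) was called toward the cochlea, and its cochlear P16 libraries stood at 21, 73.3 and 289 CPM. With the 3 libraries left out 0 were called toward the cochlea and 4 toward the SOC. Of 5 B lymphoid markers Pax5 (8.27) and Cd79b (2.66 with floors) and of 2 T lymphoid markers Thy1 (4.51) were called toward the cochlea. Pax5 also marks the developing midbrain and hindbrain, and Thy1 is a surface protein of neurons. Of 15 antigen presentation genes H2-D1 (2.12), Psmb9 and H2-Eb1 were called toward the cochlea, and with floors the last 2 had interactions of 1.0 and 0.62. Of 14 complement genes C1ra (1.85 with floors) and C4b (1.73, lost in 9 of 26 other settings) were called toward the cochlea, and of 21 interferon response genes Mx2 (-2.33) toward the SOC. The medians were 0.50, 0.81 and -0.40, the last of either sign across settings (-0.79 to 0.15).

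The microglial markers P2ry12 (-1.66, under an antisense gene) and Tmem119 (-1.62) rose in the SOC, 2 of 12, and Mmp9 was the 1 call among 7 osteoclast markers. None of 10 endothelial markers was called (median -0.28), and 1 of them rose in the SOC. Of 10 skeletal muscle genes Tnni1 (-6.50) and Myh8 (-6.30) were called toward the SOC. Myh8 stood at 1.22, 26.3 and 3.85 CPM in the cochlea at P0, and its call was lost in 5 of 26 other settings. The SOC level of Tnni1, a troponin, was 0.528, 0.416, 0.576 and 0 CPM at P0 and 15.5, 15.3 and 21.3 CPM at P16.

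Genes of proliferation and development fell more often than they rose. Of 30 cell cycle genes 24 fell in the SOC and 3 in the cochlea, none rose in either organ, and none passed the interaction, with a median of 1.22. Their sum in cochlea P16 replicate 3 was 941 CPM, above every cochlear P0 library, and without the 3 libraries 1 was called toward each organ and the median was 0.49. Of 21 Notch pathway genes 10 fell in the cochlea against 6 in the SOC, and Dll3 (-3.36), Hes5 and Nrarp (-1.88, under an antisense gene) were called toward the SOC, against 7 with the GC correction (median -0.68, -0.88 to -0.35 across settings).

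Of 37 axon guidance genes 9 fell in the cochlea against 12 in the SOC, and 8 were called toward the cochlea and 7 toward the SOC (median 0.33, 0.10 to 0.41 across settings). Unc5b stood at 136, 184 and 204 CPM in the cochlea at P0 and 32.9, 34.0 and 42.1 CPM at P16, and at 17.8, 16.4, 16 and 10.5 CPM in the SOC at P0 and 64.1, 72.9 and 139.9 CPM at P16. Unc5b, a receptor for netrin, fell in the cochlea and rose in the SOC (interaction -5.02 ± 0.34 SE, edgeR adjusted p = 2.11e-07). Efnb3 (-4.25), Sema6a (-3.48), Ephb1 (-2.60), Slit2 (-1.65) and Slit3 (-1.71) fell in the cochlea and Sema3d (-2.41) rose in the SOC. Toward the cochlea lay genes that fell in the SOC, such as Epha3 (2.29), Crmp1 (2.13), Nrp2 (1.88) and Plxna1 (1.48). Of the other 4, Efnb1 and Epha7 fell in the SOC, and Nrp1 and Epha5 had no step call.

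Of 38 Wnt pathway genes 6 were called toward each organ, and 9 fell in the cochlea and 8 in the SOC. Dkk2 stood at 18.8, 16.9 and 18.3 CPM in the cochlea at P0 and 219.6, 239 and 191 CPM at P16, and at 5.13, 2.91, 4.17 and 5.22 CPM in the SOC at P0 and 1.39, 0.527 and 0.784 CPM at P16. Dkk2, a secreted Wnt modulator, rose in the cochlea and fell in the SOC (interaction 5.69 ± 0.38 SE, edgeR adjusted p = 1.88e-07). Sfrp4 (4.26) rose in the cochlea and Wnt2b (3.11) rose in the cochlea and fell in the SOC, while the secreted antagonists Sfrp2 (-4.46) and Sfrp1 (-2.52) fell in the cochlea, Sfrp2 in both organs. The stem cell receptor Lgr5 (-2.48) rose in the SOC.

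Transcription factors of the otic lineage fell more often than they rose, 9 of 27 in the cochlea and 12 in the SOC, with 0 and 2 rising. Otx2 (4.36), Lmx1a (3.18), Pou4f3, Grhl2 (0.45 with floors) and Nr2f1 (1.33, lost in 14 of 26 other settings) were called toward the cochlea, each by a fall in the SOC. For Grhl2 that fall rests on SOC P16 libraries at or under their floor and was not seen with floors. Esrp1 (-3.58) and Prox1 were called toward the SOC, against 4 genes with the GC correction. Otx2 and Lmx1a are also known from the choroid plexus, whose summed markers stood at 214 to 663 CPM in the SOC at P0 and 21 to 97.0 CPM at P16, and their part in these calls was not tested. Hindbrain transcription factors fell in 8 of 22 cases in the cochlea and in 14 in the SOC, and 8 were called toward the cochlea and 1, Zfhx3 (-1.48, lost in 12 of 26 other settings), toward the SOC (median 0.88, 0.37 to 0.97 across settings). Egr2, Lmx1b (4.71) and Lhx1 (4.63) rose in the cochlea, and Gbx1 (4.49, 1.19 with floors), Isl1 (2.71) and Pax6 (2.66) fell in the SOC. Neurod2 (4.51) and Neurod1 (3.87) were highest among the cochlear P16 libraries in replicate 1, at 1.96 and 3.17 CPM, against 0.0906 and 0.317 CPM for Neurod2 and 0.393 and 0.634 CPM for Neurod1, and without it the interactions were 2.54 (adjusted p = 0.0621) and 2.44 (adjusted p = 0.0377) by edgeR.

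Hormone and junction genes gave single differences. Of 20 genes of steroid, thyroid hormone and retinoid handling, Slco1c1 was called toward the cochlea and Cyp26b1 (-4.15) and Thrb (-3.11) toward the SOC. Slco1c1 stood at 7.84, 5.61 and 6.0 CPM in the cochlea at P0 and 302, 257 and 334 CPM at P16, and at 56.9, 61.4, 68.8 and 77.5 CPM in the SOC at P0 and 112, 104 and 93.9 CPM at P16. Slco1c1, a thyroid hormone transporter of the blood-brain barrier, rose 46.7-fold in the cochlea (interaction 4.69 ± 0.26 SE, edgeR adjusted p = 3.54e-08). Cyp26b1, which degrades retinoic acid, fell in the cochlea, and Thrb, the thyroid hormone receptor needed for hearing, rose in the SOC. Of 14 gap junction genes the neuronal Gjd2 (4.71) and Panx3 (0.98 with floors) were called toward the cochlea and 2, among them Gjc1 (-1.55), toward the SOC. Gjd2 stood at 2.11, 2.66 and 2.02 CPM in the cochlea at P0 and 42.9, 42.8 and 29.8 CPM at P16, and at 99.7, 97.1, 102 and 73.0 CPM in the SOC at P0 and 52.8, 52.3 and 54.4 CPM at P16. Gjd2, connexin 36 of electrical synapses, rose in the cochlea, and its SOC P16 libraries lay below those at P0 without passing the step call.

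Of 31 tight junction and epithelial genes 6 were called toward the cochlea and 4 toward the SOC, with medians of either sign (-0.37 to 1.06). Cldn19 stood at 2.61, 5.33 and 2.5 CPM in the cochlea at P0 and 127, 116 and 141 CPM at P16, and at 2.59, 2.13, 2.92 and 1.21 CPM in the SOC at P0 and 0.0796, 0.405 and 0 CPM at P16. Cldn19, a claudin of Schwann cell myelin and of epithelia, rose in the cochlea and fell in the SOC (interaction 8.80 ± 0.72 SE, edgeR adjusted p = 9.46e-07, and 7.50 with floors). Tjp3 (6.09, 3.60 with floors), Cgn (3.23) and Krt19 (3.15, 1.82 with floors) fell in the SOC, Cldn3 (6.19, 0.03 with floors) fell in both organs, Cldn9 passed with no step call, and Cldn14, Cldn11, Esrp1 and Cldn10 (-1.97) were called toward the SOC. Of 22 lysosomal genes the cholesterol carriers Npc2 (-1.68) and Npc1 (-1.33, lost in 11 of 26 other settings) rose in the SOC and were called toward it (median -0.37, -0.63 to -0.28 across settings).

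Astrocyte markers rose in both organs, 7 of 11 in the cochlea against 5 in the SOC, and Aqp4, Hepacam (3.11) and Aldh1l1 (2.22) were called toward the cochlea and Slc1a2 toward the SOC. Aqp4 stood at 1.60, 2.59 and 1.92 CPM in the cochlea at P0 and 40.8, 47.4 and 36.0 CPM at P16, and at 537, 498, 581 and 498 CPM in the SOC at P0 and 1206, 1084 and 1122 CPM at P16. Aqp4, a water channel of astrocyte endfeet and of cochlear supporting cells, rose in the cochlea (interaction 3.05 ± 0.25 SE, edgeR adjusted p = 9.26e-07). Among 8 precursor markers Lhfpl3 (5.72) rose in the cochlea and Bmp4 (-2.07) fell there. The choroid plexus genes Ttr (4.80, lost in 10 of 26 other settings), Folr1 (6.08, 4.70 with floors) and Clic6 (1.96) fell in the SOC and Kl (2.18) rose in the cochlea, 4 of 8 called toward the cochlea with or without the 3 libraries that stood apart. Summed choroid plexus markers stood at 464, 429, 214 and 663 CPM in the SOC at P0 and 27.9, 21 and 97.0 CPM at P16, and at 114 to 137 CPM in the cochlea. Of 10 meningeal genes Bmp6 (3.91) and Ptgds (3.84) rose in the cochlea and Igf2 (-2.36) fell there. With the 3 libraries left out 3 meningeal genes were called toward the cochlea and 2 toward the SOC.

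Forebrain and pituitary markers were counted because of the libraries that stood apart. Of 7 forebrain markers 3, among them Neurod2 and Met, were called toward the cochlea (3 toward the cochlea and 2 toward the SOC without the 3 libraries). Of 2 pituitary genes tested Gh was called toward the SOC. Gh stood at 0.885, 2.31 and 2.28 CPM in the cochlea at P0 and 1.28, 0.242 and 0.436 CPM at P16, and at 0.624, 0.139, 1.68 and 0.340 CPM in the SOC at P0 and 8.71, 34.9 and 30.7 CPM at P16. Gh, growth hormone, stood lowest among the SOC P16 libraries in replicate 1, and with the 3 libraries left out its interaction was -6.33, against -6.84 with them. The tissue source of this RNA was not tested.

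The remaining leading genes came from no list. Ddn stood at 0.169, 0.213 and 0.0962 CPM in the cochlea at P0 and 84.0, 80.8 and 80.8 CPM at P16, and at 6.09, 2.64, 4.83 and 14.8 CPM in the SOC at P0 and 4.46, 8.47 and 6.24 CPM at P16. Ddn, dendrin, a protein of dendrites and of kidney podocytes, rose in the cochlea from under 1 CPM (interaction 8.98 ± 0.83 SE, edgeR adjusted p = 2.82e-06). Prss36 stood at 7.25, 7.24 and 7.76 CPM in the cochlea at P0 and 602, 871 and 839 CPM at P16, and at 7.77, 5.55, 6.56 and 4.50 CPM in the SOC at P0 and 3.22, 3.28 and 6.42 CPM at P16. Prss36, a secreted serine protease, rose 106-fold in the cochlea and was low throughout in the SOC (interaction 7.04 ± 0.34 SE, edgeR adjusted p = 1.50e-08). Crhbp stood at 1.56, 1.49 and 1.15 CPM in the cochlea at P0 and 193, 158 and 159 CPM at P16, and at 13.6, 15.2, 11.3 and 9.68 CPM in the SOC at P0 and 17.3, 13.9 and 17.1 CPM at P16. Crhbp, which binds the stress peptide CRH, rose 123-fold in the cochlea, and its SOC groups overlapped (interaction 6.37 ± 0.26 SE, edgeR adjusted p = 5.57e-09). Corin (6.24), a protease of natriuretic peptides with an antisense overlap of 32.0%, and Tdrd12 (6.11), a tudor domain protein, were also among the leading genes toward the cochlea.

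Nell1 stood at 79.1, 78.7 and 61.5 CPM in the cochlea at P0 and 0.378, 0.332 and 0.277 CPM at P16, and at 163, 138, 154 and 111 CPM in the SOC at P0 and 69.4, 82.6 and 83.6 CPM at P16. Nell1, a secreted factor of bone growth, thus fell in the cochlea to under 1 CPM and lay lower in every SOC P16 library without passing the step call (interaction -7.10 ± 0.26 SE, edgeR adjusted p = 3.03e-09). Rab37 stood at 9.14, 9.55 and 9.40 CPM in the cochlea at P0 and 6.72, 6.01 and 6.06 CPM at P16, and at 0.384, 1.06, 0.576 and 0.529 CPM in the SOC at P0 and 33.4, 31.4 and 33.8 CPM at P16. Rab37, a vesicle GTPase, rose in the SOC, and all its cochlear P16 libraries lay slightly below those at P0 (interaction -6.44 ± 0.31 SE, edgeR adjusted p = 1.44e-08). Ppp1r14a stood at 10.5, 9.73 and 8.85 CPM in the cochlea at P0 and 3.17, 3.08 and 1.94 CPM at P16, and at 0.720, 1.06, 0.886 and 0.492 CPM in the SOC at P0 and 30.4, 32.6 and 36.4 CPM at P16. Ppp1r14a, an inhibitor of myosin phosphatase, fell in the cochlea and rose in the SOC (interaction -7.39 ± 0.32 SE, edgeR adjusted p = 6.63e-09). Nipal4 (-6.79), a magnesium transporter family member, rose in the SOC and Ccer2 (-6.22) fell in the cochlea. Rasd2 (-5.93) and Lingo4 (-5.69, 54.6% under an antisense gene) were, with Opalin, Ppp1r14a and Myrf, the leading genes that fell in the cochlea and rose in the SOC. Ibsp, Prx, Cldn19 and P2rx2 were among those leading the reverse pattern.

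Seen by list, 34 groups of functions spread on both sides of equal change. The largest medians toward the cochlea belonged to neutrophil granule genes (3.81) and bone mineral genes (2.66), followed by synaptic vesicle genes (1.22) and cell cycle genes (1.22), and the largest toward the SOC to neuropeptides (-2.83) and the myelin genes common to both glia (-1.65). Without cochlea P16 replicate 3 the first, second and last of the 4 were 2.07, 2.14 and 0.34, so that neutrophil granule genes no longer came first. The cell cycle list held no called gene, so its median describes members that did not pass one by one.

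**Figure D5:**
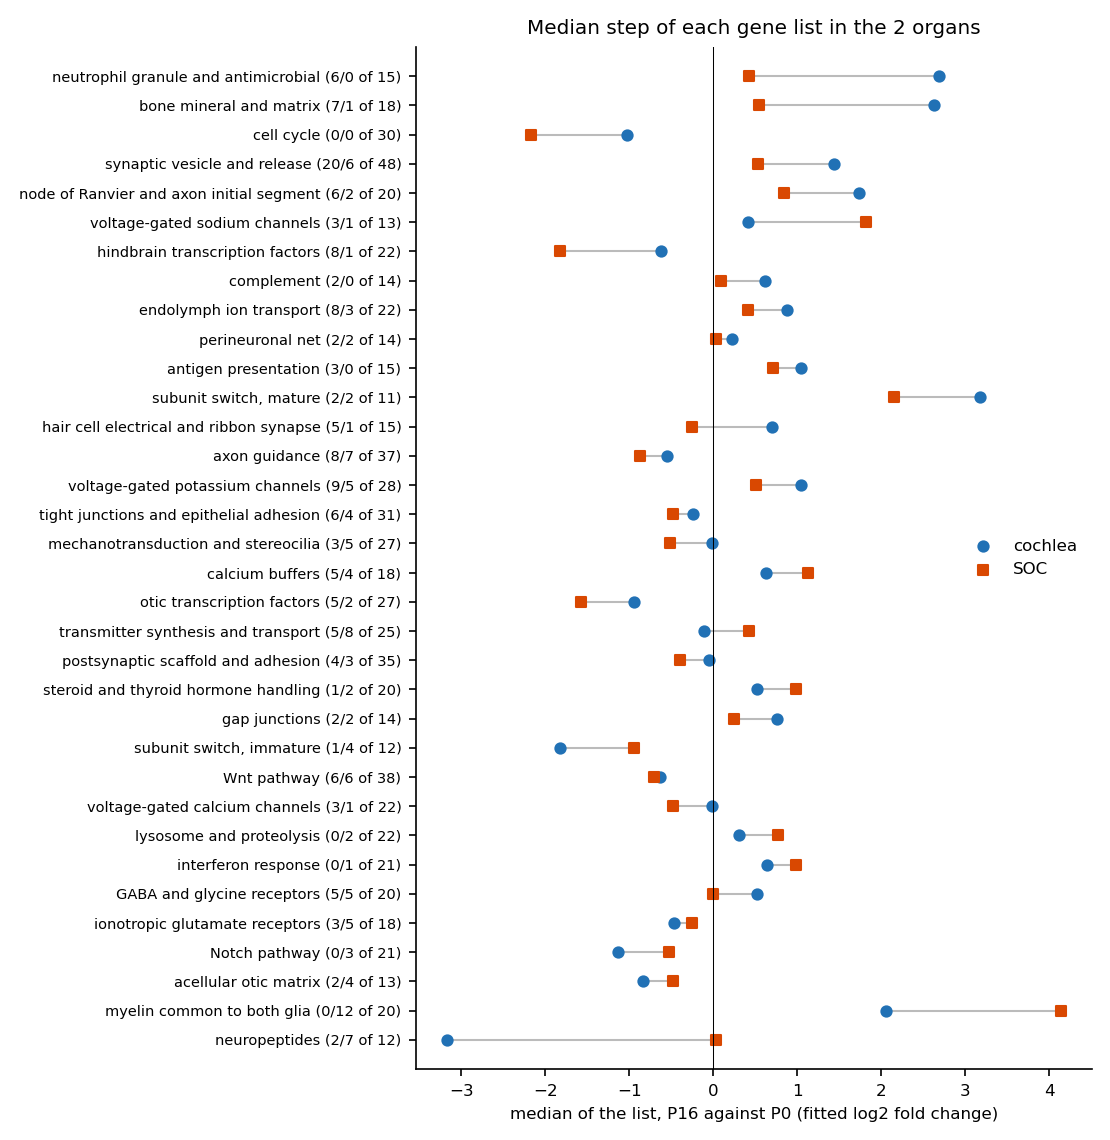
Median log2 change from P0 to P16 of 34 lists of genes in each organ (horizontal axis), with the number of genes called toward the cochlea and toward the SOC, and the number tested, beside each list. The common myelin genes lie highest in the SOC, at 4.15, and neuropeptides lowest in the cochlea, at -3.17.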

How the data were processed

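Per the labels and the methods, total RNA of pooled tissue was sequenced after depletion of ribosomal RNA, with other kits and another sequencer for each organ. The authors aligned the reads to mm10 with STAR 2.5.3a, and HTSeq and DESeq2 stand in their processing notes, while the annotation release and the use of strand in counting are not given in the sources used here. They deposited whole-number counts per gene for 20 libraries. The 13 libraries of P0 and P16 were fitted in edgeR 4.0.16 (R 4.3.3, TMM factors, filterByExpr, quasi-likelihood F test, Benjamini-Hochberg adjustment over 16430 genes), with 1 mean per group. DESeq2 1.42.0 and the other settings below were alternatives. The script was also run on simulated data, as a check of the code only. No rate of recovery or of false calls is given for that run, so it does not show how far the calls in these libraries can be trusted. The ranges and counts across settings include a setting with the SOC libraries of 1 joined table. It kept a single library of the SOC at P0, replicate 4, which stood apart. CPM scale the deposited counts to a common library total. Positions came from GENCODE M21, in which 22637 gene IDs (99.6%) were found. The genes with the largest interaction with floors, and in each list those called, were named. The members and lists were chosen with earlier results of these data known, and the forebrain and pituitary lists and the setting without 3 libraries after seeing them. Some genes are not reported here. Floors cover counting error only, and intervals of an interaction come from the fit and hold the spread between libraries.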

Additional observations from a re-analysis of the deposited data

Results flagged for a closer look

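The 1557 genes called toward the cochlea and the 1089 called toward the SOC are listed here because the test of the difference between the organs' changes passed. Among genes whose mean reached 20 CPM in some group, the leading ones when ranked with floors had fitted interactions toward the cochlea as follows: Glra3 11.68, Ibsp 10.01, Ddn 8.98, Cldn19 8.80, P2rx2 8.49, Prx 7.73, Prss36 7.04, Coch 6.94, Crhbp 6.37, Corin 6.24 and Tdrd12 6.11. Toward the SOC the values were Opalin -19.45, Mog -11.05, Tecta -8.74, Ppp1r14a -7.39, Nell1 -7.10, Gh -6.84, Nipal4 -6.79, Myrf -6.50, Rab37 -6.44, Ermn -6.24, Ccer2 -6.22 and Cldn11 -6.22. The values for Glra3, Ibsp, Cldn19, P2rx2, Opalin and Mog depend on libraries at or near 0.

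In the SOC at P0, the one group of 4 libraries, a single library lay far from the other 3 for 23 of the 216 genes named, and in 20 of these it was replicate 4. By the rule's 95% limit chance sets about 1 in 20 groups apart, but these genes share 4 libraries and are not independent. Replicate 4 was the highest at 0.794 CPM for Mog, 3.59 CPM for Ermn, 71.0 CPM for Met, 126 CPM for Slc12a2, 0.113 CPM for Cldn14 and for Kcng4, 0.340 CPM for Grin3b, 0.0378 CPM for Glra4, 713 CPM for Syt4, 218 CPM for Vcan, 1.17 CPM for Cybb, 544 CPM for Dcx and 0.0756 CPM for Gabra6. It was the lowest at 3.44 CPM for Matn4, 10.4 CPM for Lrp2, 123 CPM for Aldh1l1, 71.8 CPM for Kcnip1, 33.4 CPM for Necab2, 1.40 CPM for Wnt2b and 73.0 CPM for Gjd2. The other 3 were Tdrd12, lowest in replicate 1 at 0.960 CPM, Dmp1, highest in replicate 1 at 0.432 CPM, and Epyc, highest in replicate 3 at 0.842 CPM. For Mog, Cldn14, Kcng4, Grin3b, Glra4 and Gabra6, replicates 1, 2 and 3 were at 0 in a joined table that left the gene out. Those zeros may stand for up to 0.886 to 0.960 CPM, above the values of replicate 4 for these genes. Whether replicate 4 was the highest for them is thus not known. Summed forebrain markers were also highest in replicate 4, and their part in its other values was not tested.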

How the results depend on the processing

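A test against a fold change of 2.5 (glmTreat) called 485 genes toward the cochlea and 382 toward the SOC, and within organs 754 and 524 genes higher and lower in the cochlea and 599 and 459 in the SOC. Its patterns toward the cochlea were 250 genes higher in the cochlea alone, 139 with no step call, 74 lower in the SOC alone, 15 with opposite steps, 7 higher in both and 0 lower in both, and toward the SOC 177 higher in the SOC alone, 118 lower in the cochlea alone, 74 with no step call, 6 with opposite steps, 6 higher in both and 1 lower in both. With the replicate number as a block 1781 and 1348 genes were called, with 348 toward the SOC without step call. The numbers did not pair the samples, since same-numbered libraries correlated at 0.619, -0.329 and 0.516 in the cochlea and -0.273, -0.356 and 0.465 in the SOC over 11029 genes. GC-adjusted offsets moved the genes lower in both organs to 13 (toward the cochlea) and those without step call toward the SOC to 408. With the block and GC-adjusted offsets 1435 and 1921 genes were called, with 11 lower in both toward the cochlea and, toward the SOC, 593 higher in the SOC alone, 598 without step call and 112 higher in both. Where genes needed counts in all joined tables, opposite steps numbered 53 and genes lower in both 11 (toward the cochlea).

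Without the 3 libraries that stood apart 1676 genes were called toward the SOC, of which 656 were higher in the SOC alone, 139 higher in both, 71 opposite and 73 lower in both, and toward the cochlea 690 were lower in the SOC alone, 170 opposite and 67 lower in both. Leaving out 1 library gave 1206 to 1829 calls toward the cochlea and 957 to 1249 toward the SOC, and within organs 1565 to 1901 and 1219 to 1692 genes higher and lower in the cochlea and 1166 to 1415 and 1342 to 1911 in the SOC. Patterns ranged, toward the cochlea, over 538 to 676 higher in the cochlea alone, 252 to 328 without step call, 274 to 569 lower in the SOC alone, 63 to 140 opposite, 58 to 80 higher in both and 14 to 41 lower in both, and toward the SOC over 340 to 453 higher in the SOC alone, 298 to 442 lower in the cochlea alone, 174 to 235 without step call, 36 to 47 opposite, 50 to 108 higher in both and 27 to 49 lower in both. The highest values for opposite steps, genes lower in the SOC or lower in both and genes higher in both came without SOC P0 replicate 4, and the lowest for genes lower in both without cochlea P0 replicate 2. The causes were not tested.

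Raising each library to its floor turned Glra4 from -4.76 to 0.76, and setting left-out counts to 20 turned Glra4 to 0.63. Of the 216 named genes 124 kept their call, or its absence, in every setting run, 28 changed with glmTreat alone, and 8 changed with the 3 libraries left out. DESeq2 called 1923 and 1215 genes, and no other setting moved the counts toward either organ by over 1.5 times. With 3 or 4 pooled libraries per group, and 1 laboratory and kit per organ, a difference between organs in level cannot be told apart from these. Differences between organs in the change with age are tied to the same factors.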
